A study of Mus musculus with 4 samples.

Results

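Wide H3K9me3 domains of mouse embryonic stem (ES) cells, pluripotent cells in culture, are described here. They were chosen by width alone, as the autosomal H3K9me3-enriched regions wider than 5 kb. The rule took 387 of 32502 H3K9me3 regions in the genome and 1.20% of the 32295 regions on autosomes, and 1 further wide region lay on X or Y. Chromatin immunoprecipitation followed by sequencing (ChIP-seq) had been carried out for H3K9me3 and for H3K36me3 in wild-type (WT) cells (H3f3a+/+; H3f3b+/+) and in G34R cells (H3f3a+/G34R; H3f3b+/+), both of strain 129S1/SvImJ. G34R replaces a glycine of the histone variant H3.3 with arginine, and here it was expressed from 1 targeted copy at the endogenous H3f3a promoter after excision of a WT minigene by Cre recombinase. There was 1 library for each mark and cell type. A region entered a list if it was enriched in WT or in G34R cells, so a domain may belong to either or to both. The lists hold positions and no read values, and WT and G34R cells were therefore not compared. Only bins of 200 bp that overlapped genes and lay above the 95th percentile of counts in either cell type were kept. Gene annotation can thus set the edges and width of a region. A stretch described as without H3K36me3 holds no listed region, which is not a measured absence of the mark. The depth is unknown and there were no replicates. All intervals given are 95% Wilson intervals and cover counting error only.

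H3K9me3 is laid down by enzymes such as SETDB1 and SUV39H1, is bound by HP1 proteins, and marks silent chromatin, including repeats, imprinted loci and arrays of zinc finger genes. H3K36me3 is laid down by SETD2, which travels with RNA polymerase II, and marks the bodies of transcribed genes. Demethylases of the KDM4 family act on both. CpG islands are stretches of sequence, often at gene starts, in which the dinucleotide CpG has been kept, whereas elsewhere in the genome it has been lost through methylation and mutation.

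Sequences from 3 kinds of wide domain are printed first, since repeated coding units, copied sequence and CpG content recur in the results. All are from NCBIM37, the assembly equivalent to mm9, 5′ to 3′. The first set shows 4 consecutive zinc finger repeats of Gm13139 on the plus strand of chromosome 4, inside the domain chr4:146546401-146566800, which held 11 C2H2 fingers of that gene. Each repeat of 84 bases encodes 1 finger followed by the linker to the next finger, and capitals mark the linker codons. The 4 repeats shared 81.0% to 97.6% of their bases in 6 pairs.
Gm13139 finger 1, chr4:146553000-146553083: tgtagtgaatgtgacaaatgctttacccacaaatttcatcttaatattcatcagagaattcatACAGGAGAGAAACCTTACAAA
Gm13139 finger 2, chr4:146553084-146553167: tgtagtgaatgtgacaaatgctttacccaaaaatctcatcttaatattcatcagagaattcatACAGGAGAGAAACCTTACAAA
Gm13139 finger 3, chr4:146553168-146553251: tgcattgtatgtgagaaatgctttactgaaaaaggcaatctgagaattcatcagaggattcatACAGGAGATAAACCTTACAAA
Gm13139 finger 4, chr4:146553252-146553335: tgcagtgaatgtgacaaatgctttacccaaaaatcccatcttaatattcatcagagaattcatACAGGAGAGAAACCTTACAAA

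The second set shows copied sequence. Capitals mark the central 50 bases of a 200 bp bin, the stretch whose exact copies on both strands of the assembly were counted, and each bin was the one with the most occurrences within 1 Mb of its domain among those free of untranslated regions. The first, from the widest domain at Gm15319, occurred 5 times in the assembly and 3 of these were within 1 Mb of the domain. The second, in a bin that touches an exon in a domain at C130026I21Rik, occurred 1541 times, and 7 of these were within 1 Mb. The third lay in the fingers of Gm13139 and occurred 39 times, 28 of them within 1 Mb. Each count includes the bin itself.
Gm15319 domain, chr8:19980251-19980350: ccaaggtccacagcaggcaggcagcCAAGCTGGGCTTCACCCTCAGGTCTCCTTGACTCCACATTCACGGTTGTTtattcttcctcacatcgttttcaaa
C130026I21Rik domain, chr1:85102851-85102950: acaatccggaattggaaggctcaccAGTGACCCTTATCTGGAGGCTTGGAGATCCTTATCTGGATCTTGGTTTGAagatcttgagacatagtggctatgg
Gm13139 domain, chr4:146553451-146553550: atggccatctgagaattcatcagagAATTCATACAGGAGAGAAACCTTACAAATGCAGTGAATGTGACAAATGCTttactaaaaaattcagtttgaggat

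The third set shows CpG content in bins of median CpG number from 3 domains, with every CpG in capitals. The bins at Six3 and at Hoxa5 held 5 CpG each and touched no exon, and the bin at Agrn, which touches coding sequence, held 4.
Six3 domain, chr17:86010001-86010200: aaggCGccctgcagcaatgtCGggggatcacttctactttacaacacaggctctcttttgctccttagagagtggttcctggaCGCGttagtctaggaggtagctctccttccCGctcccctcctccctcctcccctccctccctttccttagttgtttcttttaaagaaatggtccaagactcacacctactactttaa
Hoxa5 domain, chr6:52153001-52153200: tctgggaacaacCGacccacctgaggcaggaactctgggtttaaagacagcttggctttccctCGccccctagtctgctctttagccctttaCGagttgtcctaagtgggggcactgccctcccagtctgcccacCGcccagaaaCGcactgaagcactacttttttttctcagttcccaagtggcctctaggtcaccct
Agrn domain, chr4:155543401-155543600: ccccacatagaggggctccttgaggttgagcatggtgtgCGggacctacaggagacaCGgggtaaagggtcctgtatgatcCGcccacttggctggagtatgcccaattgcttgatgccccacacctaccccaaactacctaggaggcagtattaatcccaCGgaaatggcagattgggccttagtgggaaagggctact

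Width chose the domains and is given as a description. The 387 domains covered 3.12 Mb, which was 8.64% of the autosomal length in the H3K9me3 list. Their median width was 6600 bp (quartiles 5600 and 8600 bp), the widest had 48800 bp, 55 exceeded 10 kb and 12 exceeded 20 kb. The narrowest region in both lists had 600 bp, so shorter regions are not among those of 5 kb or less. Read literally, the methods of the study exclude merged regions above a limit just below that width, and its sense is unclear. There was no break at the threshold, as 35 regions had the width just inside it (5200 bp) and 35 the width just outside (5000 bp). The first regions just inside, by position, lay in C130026I21Rik, Sec16b and Lmx1b, and the first just outside in Pcmtd1, at the start of Lmx1b and in Ptprt. For 208 domains the nearest H3K9me3 region was 200 bp away, a gap of 1 bin, and another H3K9me3 region lay within 2 kb of 306 domains (79.1%, interval 74.7 to 82.8), compared with 47.6% of narrower regions. The number of domains thus depended on how neighbours were joined. When regions with gaps of at most 2 kb were joined first, 1569 were wider than 5 kb.

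Another wide domain was found within 1 Mb of 214 of the 387 domains (55.3%), and gaps of at most 1 Mb divided them into 237 groups, of which 173 held 1 domain. Domains of 1 group can share sequence and genes and are not independent observations. Relative to gene content the density was highest on chromosome 8 (37 domains, 0.716 per genic Mb) and chromosome 1 (48 domains, 0.639), and lowest on chromosome 3 (9 domains, 0.174) and chromosome 19 (5 domains, 0.175). As a share of all H3K9me3 regions of the chromosome, wide domains were most frequent on chromosome 1 (2.64%) and least on chromosome 19 (0.563%), and chromosome 8, with 3319 regions, had 1.11%, below the 1.20% of all autosomes. On chromosome 8, 10 domains touched Gm20388, a gene model that is 4434882 bp long and spans many other genes, so that the gene named for them says little about their place.

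The widest domains were found in a few arrays of copied genes, in the Hoxa cluster and at Heatr7b1, where no bin was copied. Of the 12 widest, 10 overlapped an H3K36me3 region and in 8 at least 50% of bins were copied. The widest (chr8:19950201-19999000, 48800 bp) contained the start of Gm15319 and lay within the long noncoding AC152164.1, with 77.5% of bins copied and 70.5% of its length in 7 H3K36me3 regions. In the same group, chr8:19859601-19902800 (43200 bp) lay in the noncoding transcript 2610005L07Rik and was 98.1% covered by H3K36me3, chr8:19923601-19949000 (25400 bp) was 84.3% covered, and chr8:19999201-20020600 (21400 bp) was 8.41% covered. Adjacent domains with like shares of copied bins (77.5% to 82.9%) thus differed widely in H3K36me3. On chromosome 1, C130026I21Rik held domains of 39200 bp (chr1:85063801-85103000, 49.5% in 19 H3K36me3 regions) and 25200 bp (chr1:85238401-85263600, 65.1% in 9). Heatr7b1 held 1 of 25000 bp (chr1:90123401-90148400, 5.60% in H3K36me3) and Sp140 1 of 20400 bp (chr1:87509001-87529400, 36.3%). On chromosome 4 the domains at Gm13152 (chr4:146842201-146868800, 26600 bp) and Gm13139 (chr4:146546401-146566800, 20400 bp) were 72.9% and 60.8% covered. The remaining pair of the 12, chr6:52112001-52132600 over Hoxa3 and chr6:52151801-52172000 over Hoxa3, Hoxa5, Hoxa6 and Hoxa7, had their nearest H3K36me3 region at 563400 and 524000 bp, and 1.94% and 0% of bins copied.

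To ask what wide domains held, their 15580 bins of 200 bp were compared with the 164712 bins of narrower H3K9me3 regions and with 5030668 bins in genes, since a wider region touches more features by its width alone. In wide domains 25.1% of bins were also in an H3K36me3 region (interval 24.4 to 25.7), against 7.80% in narrower regions (7.67 to 7.93) and 5.58% of genic bins. Copied bins made up 17.3% (16.7 to 17.9), 6.31% and 7.24%, in the same order. Much of the share in wide domains came from 4 of the 237 groups of neighbouring domains, picked afterwards as those with the most copied bins. Without them it was 5.42% (5.04 to 5.82) in the 341 domains left. Narrower regions were not trimmed in this way, so this value cannot be compared with theirs. Bins at most 1 kb from a protein-coding gene start were fewer than in narrower regions, with 6.60% (6.22 to 7.0) against 11.0%, and genic bins had 2.77%. Coding sequence was touched by 11.8% of bins (11.3 to 12.3), against 13.7% in narrower regions and 7.13% of genic bins. The lower share than in narrower regions was not stable. Among regions with under 10% of bins copied it was 14.9% (14.3 to 15.6) in wide domains and 14.7% (14.6 to 14.9) in narrower regions, a filter applied to the latter after seeing the data, and coding bins away from gene starts made up 10.4% in wide and 9.93% in narrower regions. Bins within genes of the zinc finger list made up 3.39% (3.12 to 3.68), 2.07% and 1.48%. Introns held 72.8% of the bins of wide domains and 73.5% of those of narrower regions. The interval of the wide domains did not reach the value of narrower regions for H3K36me3, starts or zinc finger genes, nor for copies with the 4 groups included or for coding sequence without the copy filter, but bins of 1 domain are not independent and these intervals are too narrow.

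**Figure D1:**
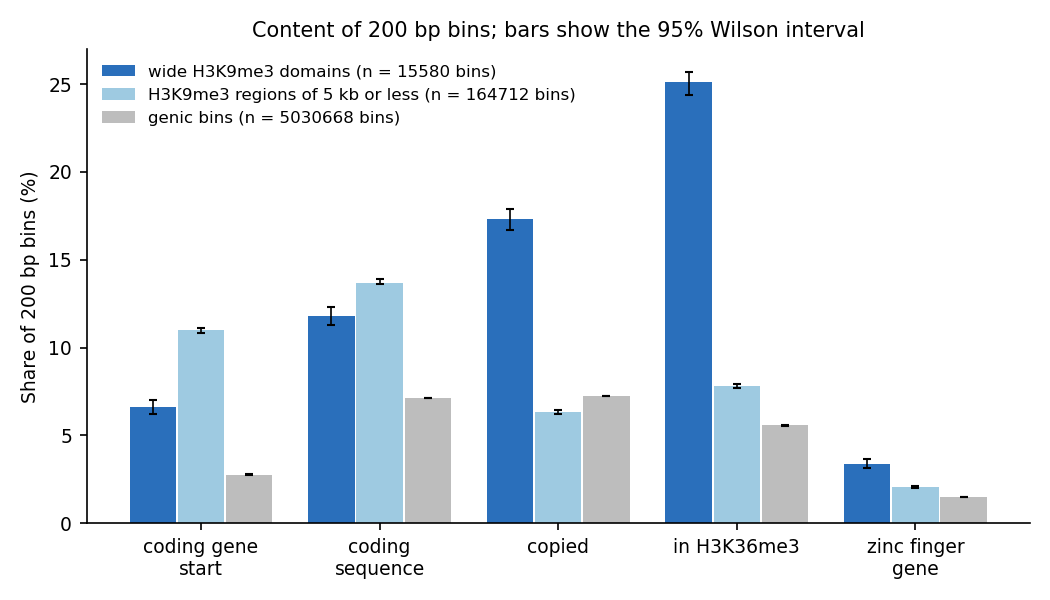
Share of 200 bp bins (y axis, %) that lie near a protein-coding gene start (up to 1 kb away), touch coding sequence, hold copied sequence, lie in an H3K36me3 region or touch a zinc finger gene, for wide H3K9me3 domains (dark blue), H3K9me3 regions of 5 kb or less (light blue) and all genic bins (grey). Error bars are 95% Wilson intervals, and the share in H3K36me3 is 25.1% in wide domains against 7.80% in narrower regions. The share of copied bins in wide domains, 17.3%, falls to 5.42% without the 4 groups of neighbouring domains that held the most copied bins.

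H3K36me3 cover differed strongly among the domains. An H3K36me3 region overlapped 160 of the 387 domains (41.3%, interval 36.5 to 46.3), compared with 8.42% of all autosomal H3K9me3 regions. At least 50% of the length was covered in 81 domains (20.9%, compared with 6.67% of all), 9 domains lay wholly inside H3K36me3 regions, and the shared length was 781 kb. The edges of the marks coincided in few cases. An H3K36me3 region began at the first base of the domain in 20 domains and ended at the last base in 25, and 6 domains had both. Both lists are limited to bins that overlap genes, so a shared edge can also be the end of a gene. The 227 domains without H3K36me3 were mostly far from it, with a median distance of 117600 bp. A region lay within 10 kb of 21 of these and none within 100 kb of 123. For 37 of the 227, the gene that held most of the domain carried H3K36me3 elsewhere. These include the domain of Hmx2 and Hmx3, whose leading gene model, Fgfr2, is 3009069 bp long and spans other genes. From the H3K36me3 side, 44 of the 1842 H3K36me3 regions wider than 5 kb (2.39%) overlapped a wide H3K9me3 domain, and these involved 40 of the 387 domains (10.3%). When neighbours with gaps of at most 2 kb were joined first, the overlap was 24.7% of 1569 domains, and 11.8% of their bins lay in H3K36me3.

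High CpG content went with the absence of listed H3K36me3 regions, but low CpG content was found in domains with and without them. The ratio of observed to expected CpG, which compares the number of CpG with that given by the C and G content, was 0.5 or higher in 98 domains (25.3%, compared with 13.5% of all autosomal H3K9me3 regions), and these are called CpG-dense. This limit was chosen after the values were seen. Over all bins together the ratio was close in wide domains and narrower regions, 0.371 and 0.354, with 21.5 and 21.2 CpG per kb. H3K36me3 overlapped 1 of the 98 CpG-dense domains (1.02%, interval 0.180 to 5.56) and 159 of the other 289 (55%, interval 49.3 to 60.6). Of the 227 domains without H3K36me3, 130 were not CpG-dense. The exception among CpG-dense domains was chr8:125951201-125958800 inside Gm20388, where H3K36me3 covered 1000 of 7600 bp. Among H3K9me3 regions of 5 kb or less the shares were 2.67% (2.23 to 3.20) of 4268 CpG-dense regions and 8.85% (8.52 to 9.19) of 27640 others. The higher overlap of wide domains was thus found outside the CpG-dense class, also by bin, with 0.139% and 32.5% of bins in H3K36me3 in CpG-dense and other wide domains, compared with 1.56% and 9.04% in narrower regions. The contrast between CpG-dense and other domains remained without domains in which 10% or more of bins were copied (0 of 95 and 95 of the remaining 192, 49.5%) and in the widest domain of each group (0 of 64 and 96 of 173, 55.5%). With a limit of 0.4 in place of 0.5 it was 6.90% against 62.0%. After joining neighbours it was 2.27% of 176 against 27.5% of 1393.

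**Figure D2:**
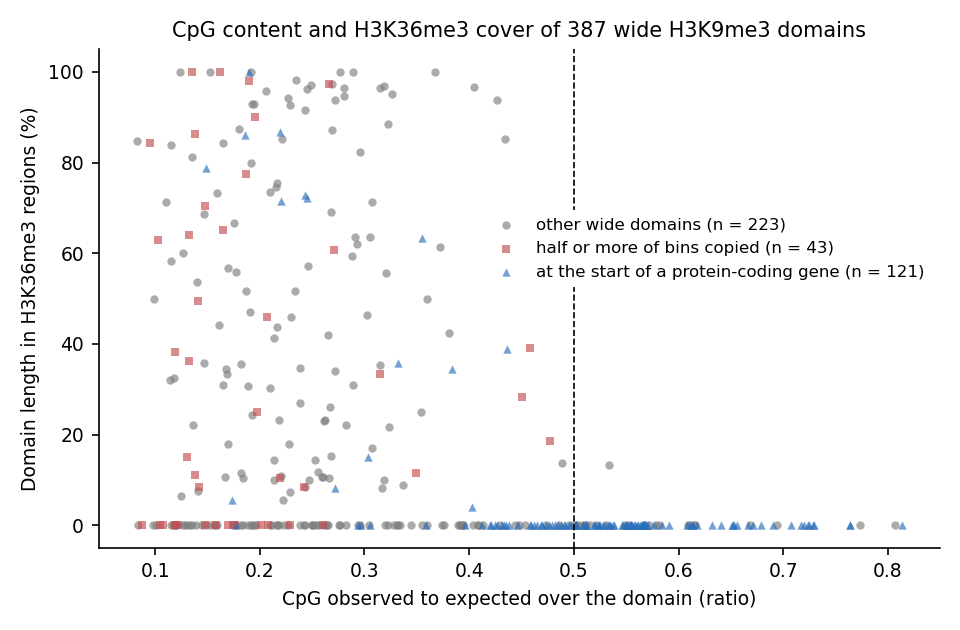
Ratio of observed to expected CpG (x axis) and share of the domain length in H3K36me3 regions (y axis, %) for each of the 387 wide H3K9me3 domains. Red squares are domains with at least 50% of bins copied (43), blue triangles other domains at a protein-coding gene start, and grey circles the rest; right of the dashed line at 0.5, 1 of 98 domains lies above 0.

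Most CpG-dense domains lay at the starts of genes, as did most CpG-dense regions of 5 kb or less. A protein-coding gene started inside, or at most 1 kb from, 126 wide domains (32.6%, interval 28.1 to 37.4, compared with 13.2% of all autosomal H3K9me3 regions), and 74 of the 98 CpG-dense domains (75.5%). Of the 4268 CpG-dense H3K9me3 regions of 5 kb or less 2860 lay at a start. With the starts of all protein-coding transcripts the number was 165 (42.6%). A wider region meets more starts by its width alone. By bin the order was the reverse, with 6.60% of bins near a coding gene start in wide domains and 11.0% in narrower regions. In 22 domains the leading gene, that with the most bins, was protein-coding and lay wholly inside, 20 of them CpG-dense and 0 with H3K36me3. Bins outside genes were not listed, so a domain can end where the annotated gene ends, as at Sox17 and Nkx6-1. The extent of these domains beyond the gene is unknown. Domains at a coding start had H3K36me3 in 19 of 126 cases (15.1%), and those away from one in 141 of 261 (54%). G+C content was 55.5% at the median of CpG-dense domains and 45.7% in the others, and coding sequence was touched by 21.3% and 8.90% of their bins.

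Hox genes, which encode homeodomain factors that pattern the body axis, were often touched by wide domains. Of 21418 autosomal protein-coding genes 1.63% touched a wide domain, compared with 24 of 39 Hox genes. H3K9me3 regions of any width touched 41.4% of the coding genes and 39 of the 39 Hox genes. The 24 Hox genes shared 19 wide domains of 5200 to 20600 bp that covered 181 kb, and 15 of these contained or adjoined a gene start. All 4 clusters contributed. Wide domains covered 67.7% of the Hoxa cluster (6 domains, 71.4 kb of 106 kb), 35.3% of Hoxb (7 domains, 61.4 kb of 174 kb), 26.2% of Hoxd (3 domains, 25.4 kb of 96.8 kb) and 19.5% of Hoxc (3 domains, 22.6 kb). H3K9me3 regions of any width covered 83.3%, 45.8%, 69.8% and 58.5% of the 4 spans, a narrower spread between clusters than for wide domains alone. The list holds only bins that overlap genes, so sequence between genes could not be covered. All these shares therefore also depend on how much of each span is annotated as gene. No H3K36me3 region lay in any of the 4 clusters, and the nearest was 177600 to 821800 bp from the domains. Observed to expected CpG was 0.32 to 0.641, and 9 of the 19 were CpG-dense. The widest outside Hoxa were chr11:96152801-96168400 at Hoxb5 and Hoxb6 (15600 bp) and chr11:96197201-96211000 at Hoxb3 (13800 bp).

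Of 6 miRNA genes in wide domains 3 matched an entry in the RefSeq miRNA table by name, and all 3 lay in Hox clusters. Mir196b was in the domain chr6:52180001-52188800 at Hoxa10 (8800 bp), Mir10a in chr11:96177801-96183000 at Hoxb4 (5200 bp) and Mir615 in chr15:102839201-102846600 (7400 bp), each without H3K36me3. Their mature sequences, from RefSeq on GRCm38.p6, are given because they are the short RNAs encoded under these domains. Capitals mark the seed, bases 2 to 8, and the 6 seeds differed from each other.
mmu-miR-196b-5p: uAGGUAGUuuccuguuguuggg
mmu-miR-196b-3p: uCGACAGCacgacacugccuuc
mmu-miR-10a-5p: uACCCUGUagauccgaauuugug
mmu-miR-10a-3p: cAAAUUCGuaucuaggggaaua
mmu-miR-615-5p: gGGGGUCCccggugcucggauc
mmu-miR-615-3p: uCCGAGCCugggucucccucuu

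Other transcription factors of development were also touched by wide domains. A list of homeobox and related families (Dlx, Fox, Gata, Irx, Lhx, Nkx, Pax, Sox, Tbx and others), made after their domains had been seen, held 211 genes, of which 54 touched a wide domain (25.6%). H3K9me3 regions of any width touched 193 of the 211. The 54 genes accounted for 56 wide domains in 47 groups, 45 of these domains at a coding start and 43 CpG-dense, and the median ratio of all 56 was 0.562. H3K36me3 overlapped 0 of the 56, and in 39 the nearest region was over 100 kb away. The widest was at Six3, which acts in forebrain and eye formation (chr17:86009201-86028400, 19200 bp, ratio 0.458, nearest H3K36me3 at 359000 bp). It was followed by Uncx (chr5:140019401-140035400, 16000 bp), by a domain over the starts of Hmx2 and Hmx3 (chr7:138684401-138699800, 15400 bp), by Lhx2 (chr2:38202201-38216200, 14000 bp) and by Pax7, a factor of muscle stem cells (chr4:139376801-139389600, 12800 bp). Not all were remote from H3K36me3, as the nearest region was 5800 bp away at Hmx2 and Hmx3, 6400 bp at Foxf1a and 6400 bp at Lhx1. Zic4, a zinc finger factor of cerebellar development that was not on this list, had a domain of 7800 bp (chr9:91276201-91284000) with a ratio of 0.515. Hox genes and the listed factors, without Zic4, together accounted for 75 domains and 52 of the 98 that were CpG-dense. Of the remaining 312 domains, 160 (51.3%) overlapped H3K36me3.

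**Figure D3:**
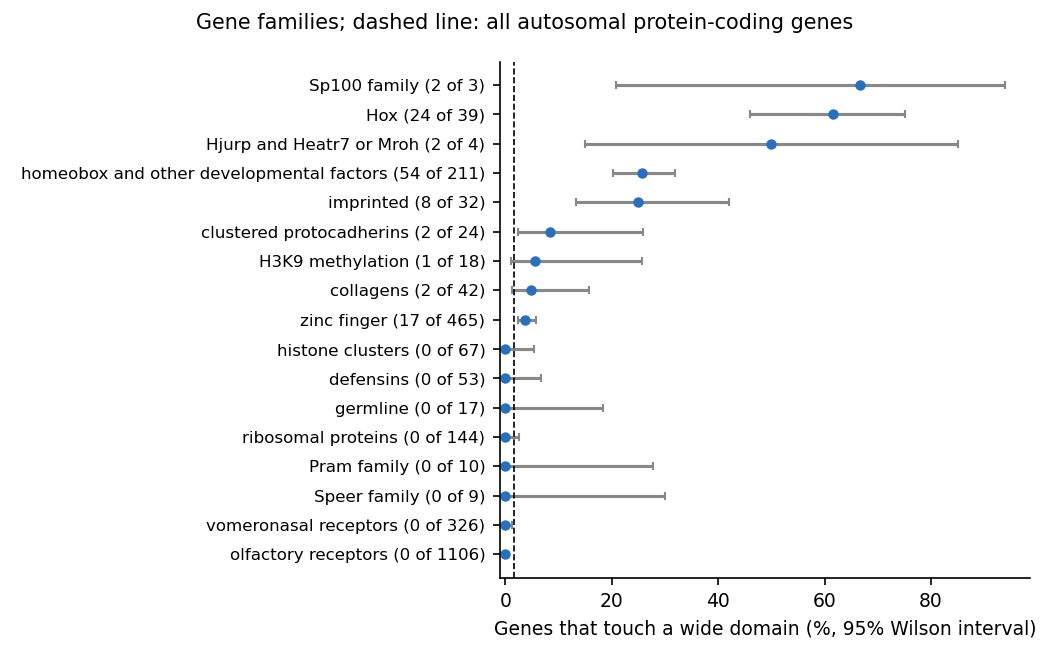
Share of the genes of each family that touch a wide H3K9me3 domain (x axis, %), with the number of genes in brackets; points are shares and bars 95% Wilson intervals. The dashed line marks the 1.63% of all autosomal protein-coding genes; Hox genes stand at 24 of 39, and vomeronasal and olfactory receptors at 0. The list of homeobox and other developmental factors was made after the domains had been seen.

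Many zinc finger genes of the C2H2 type encode repressors of transposable elements. Genes listed as zinc finger genes by symbol were touched by 17 wide domains (4.39%, interval 2.76 to 6.92, compared with 2.01% of all autosomal H3K9me3 regions), in 17 of 465 such genes. These domains were of moderate width, 5200 to 8600 bp, and 0 of the 55 domains over 10 kb touched a gene listed by symbol, although 2 touched genes with C2H2 motifs, Gm13139 and Gm13152. When genes were instead taken by their sequence, with 3 or more C2H2 motifs in the translated coding sequence, the count was 28 domains (7.24%). Of these 28, 15 also touched a gene listed by symbol. By the same definition the share was 3.25% of H3K9me3 regions of 5 kb or less, which have fewer bins each. The count differed from that by symbol, as many genes of the chromosome 4 array have no Zfp symbol. Most domains were of 3 kinds. In the first, fingers lay inside the domain. At Zfp11 (chr5:130161801-130168400, 6600 bp) the domain held 21 fingers and was 63.6% covered by H3K36me3, and at Zfp629 (chr7:134752001-134759200, 7200 bp) it held 19 and was 38.9% covered. At Repin1 (chr6:48543801-48549200, 5400 bp, 13 fingers) and Zfp579 (chr7:4942201-4947600, 5400 bp, 8 fingers) there was no overlap, with the nearest listed H3K36me3 region at 52800 and 11800 bp. The paper shows Repin1 as an example of a gene that gains both marks in G34R cells. A gene without a listed region can thus still carry H3K36me3. In the second kind the domain lay inside the gene and touched no coding sequence. The domain at Zfp420 (chr7:30664201-30672800, 8600 bp) touched no exon and was 30.2% covered. Those at Zfp808, Zfp600 and Zfp932 touched noncoding exon sequence in 3, 4 and 4 bins. That at Zfp808 (chr13:62236201-62244000, 7800 bp) was 64.1% covered with 61.5% of bins copied, and those at Zfp600 and Zfp932 were 100% and 63.0% covered. The third kind was CpG-dense and had no listed H3K36me3 region, as at Zfp503 (ratio 0.764), Prdm12 (0.509) and Zic4. Zfp503 and Zic4 were listed by symbol only and were not among the genes counted with 3 or more C2H2 motifs. H3K36me3 overlapped 10 of the 17. A finger lay inside 11 wide domains (2.84%), with 108 fingers in all. In narrower regions the share was 0.574% (183 of 31908), but wide domains have more bins each, and 11 domains in 15580 bins were fewer per bin than 183 regions in 164712 bins. Zfp11, Zfp629, Repin1, Zfp579 and the other genes of this paragraph beside Zfp420, Zfp808 and Zic4 were chosen after their values were seen.

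The group with the most domains was a zinc finger array on chromosome 4. It held 19 wide domains in 1864 kb (chr4:145023201-146887200), over 16 protein-coding genes and 42 pseudogenes, and 13 genes of the span had 3 or more C2H2 motifs. All 19 overlapped H3K36me3, over 11.5% to 100% of their length and 70.5% of their summed length. Copied bins made up 43.8%, and 61.9% of these had a copy within 1 Mb. Observed to expected CpG ranged from 0.0826 to 0.477. Fingers were found in 4 of the domains, 7 at Gm13247, 11 at Gm13251, 11 at Gm13139 and 6 at Gm13152. The domains of Gm13251 (chr4:145727601-145735200) and Gm13152 (chr4:146880801-146887200) were 97.4% and 84.4% covered by H3K36me3. The remaining 15 held no finger, and 7 of the 19 touched the noncoding Gm17317. Copied sequence went from 8.33% to 83.3% of bins among the domains of this array, with the highest share in the domain of Gm13139, whose finger repeats are printed above.

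The next groups were on chromosome 1. At C130026I21Rik (chr1:84996601-85330600) 12 domains covered 172 kb of 334 kb, 81.6% of bins were copied, and 6 domains overlapped H3K36me3 over 25.9% of the summed length. Domains of 19000 bp (chr1:85191201-85210200) and 14800 bp (chr1:85022001-85036800) had none, and 1 of 12000 bp (chr1:85157201-85169200) had 15.0%. A domain in the noncoding Gm2619 (chr1:85305201-85319600, 14400 bp) had 98.6% of bins copied and 8.33% in H3K36me3. At and beside the Sp100 family (chr1:87419001-87546200), whose members encode nuclear body proteins, 9 domains covered 85.8 kb. Of these 5 lay at Sp110 and Sp140 and 4 in the noncoding Gm16092 and Gm7592, and in the 9 together 75.3% of bins were copied. H3K36me3 was found in 3 of the 9. It covered 90.1% of the domain over the start of Sp110 (chr1:87479201-87495400, 16200 bp), 77.5% and 36.3% of the first pair of domains within Sp140, and 0% of those further along Sp140. Another group on chromosome 1 (chr1:90108001-90207400, 6 domains, 83.4 kb) contrasted with these as 0% of its bins were copied. Its domains lay at the Ugt1a genes, Heatr7b1, Hjurp, the chaperone of the centromeric histone CENP-A, and Trpm8, a cold-sensing ion channel. H3K36me3 covered 75.5% of the domain chr1:90148601-90167400 at Hjurp (18800 bp) and 63.3% of the next, compared with 5.60% at Heatr7b1 and 7.32% and 0% of the domains further inside Trpm8.

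**Figure D4:**
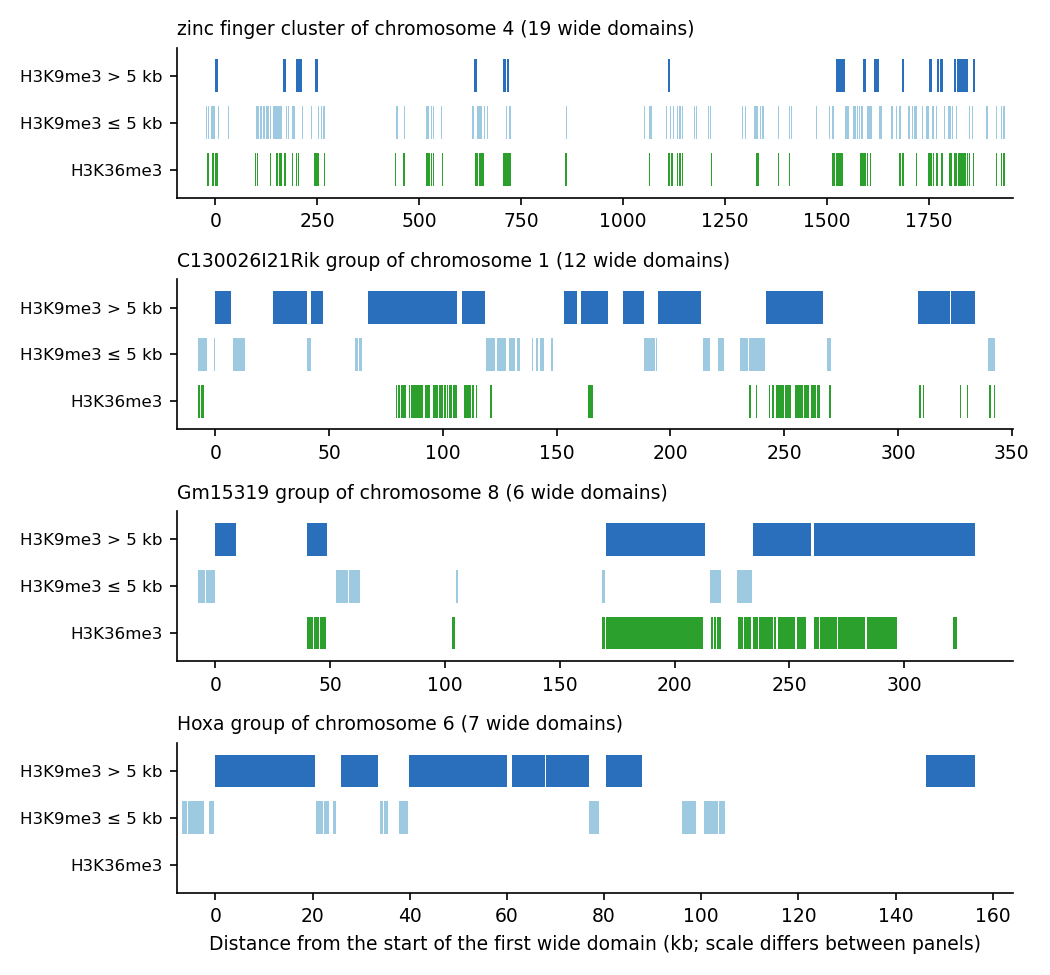
Positions of H3K9me3 domains wider than 5 kb (dark blue), H3K9me3 regions of 5 kb or less (light blue) and H3K36me3 regions (green) in 4 groups of wide domains; the x axis is the distance from the start of the first wide domain in kb and differs in scale between panels. H3K36me3 overlaps all 19 wide domains of the chromosome 4 group, 6 of 12 on chromosome 1 and 5 of 6 on chromosome 8, and none of 7 in the Hoxa group, of which 6 lie in the Hoxa cluster and 1 at Evx1 beside it.

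Copied sequence was concentrated in few groups. At least 50% of bins were copied in 43 domains (11.1%, compared with 4.57% of all autosomal H3K9me3 regions), and these lay in 12 groups, 21 of the domains on chromosome 1, 9 on chromosome 4 and 6 on chromosome 8. The other extreme was more frequent, as 200 domains had no copied bin. Of the 2697 copied bins 60.0% had a copy within 1 Mb and 23.2% on another chromosome. The share of copied bins was 31.9% in domains over 10 kb, 10.1% in the widest domain of each group, and 10.7% when the central 100 bases were matched. The 4 groups with the most copied bins, C130026I21Rik (702 copied bins), the chromosome 8 group at Gm15319 (630), the chromosome 4 array (354) and the Sp100 family group (323), held 12, 6, 19 and 9 domains. Left out one after another, each in addition to those before, they lowered the share to 13.6%, 9.79%, 7.70% and 5.42%. Without all 4, 19.1% of the bins left were in H3K36me3. These groups were chosen after their values were seen, for their copied bins, so a fall was bound to follow. Narrower regions (6.31%) were not trimmed in this way, and the lowered shares cannot be compared with theirs. The 43 copied domains overlapped H3K36me3 in 28 cases (65.1%), and domains that were neither copied to this extent nor CpG-dense in 131 of 246 (53.3%). The reads had been placed with a limit on the number of alignments, and copies with mismatches were not counted. The part of read placement in the values at copied domains was not tested.

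Coding exons were touched by 227 domains (58.7%, interval 53.7 to 63.5, compared with 26.8% of all autosomal H3K9me3 regions, which are narrower). In 13 domains (3.36%, interval 1.97 to 5.66) at least 50% of bins touched coding sequence, compared with 12.9% of H3K9me3 regions of 5 kb or less and 14.4% of H3K36me3 regions wider than 5 kb. A limit of 50% is easier to reach with few bins, so these shares cannot be compared directly between widths. The 13 were of opposite kinds. Agrn, which encodes the basement membrane protein agrin, had a domain of 16600 bp (chr4:155541601-155558200) with 48 of 83 bins touching coding sequence and lay wholly inside 1 H3K36me3 region. Srrm2, a splicing factor gene (chr17:23948201-23958200, 10000 bp, 34 of 50 bins), and Tln1, which encodes the adhesion protein talin (chr4:43551001-43559400, 8400 bp, 31 of 42 bins), were also 100% covered. Polrmt, the mitochondrial RNA polymerase gene (chr10:79197401-79206800, 9400 bp, 34 of 47 bins), was covered over 85.1% and Cenpo over 96.2%. In contrast Muc5ac, Dspp, Evpl, Cilp2, Ddn, Scarf2 and Skor2 had no overlap, with H3K36me3 at 3600 to 109000 bp. Zfhx3 had 26 of 29 bins in coding sequence and 13.8% in H3K36me3. In all, 6 of the 13 overlapped H3K36me3, and Tln1, Cenpo, Zfhx3 and those without overlap were named after their values were seen.

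Domains with much H3K36me3 differed in their share of coding bins. Among domains with at least 50% in H3K36me3 that were not among the 12 widest, the widest besides that at Agrn were at Hjurp (above, 33 of 94 bins coding, 35.1%), in Ppm1b, a protein phosphatase gene (chr17:85361801-85380400, 18600 bp, 51.6% in 9 regions, 0 coding bins), and over the end of Ezr, which encodes the membrane linker ezrin (chr17:6940001-6956400, 16400 bp, 95.1% in 1 region, 16 of 82 bins coding, 19.5%). Of the 330 domains whose leading gene was protein-coding, 228 lay inside the gene, 55 over its start and 25 over its end. Of the 228, 20 also lay at the start of a protein-coding gene, among them that of Hmx2 and Hmx3 inside the long model of Fgfr2. H3K36me3 overlapped 118 of the 228 inside the gene (51.8%), 11 of the 25 over the end (44.0%) and 7 of the 55 over the start (12.7%).

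Imprinted genes, which are expressed from the allele of 1 parent, were touched in 8 of 32 cases, by 7 domains. Of 28 that are protein-coding 6 were touched (21.4%), beside 1.63% of all coding genes, and the noncoding Airn and Nespas shared the domains of Igf2r and Gnas. The widest were over the start of Grb10, a growth inhibitor (chr11:11920201-11938800, 18600 bp, ratio 0.476, nearest H3K36me3 at 83200 bp) and over the start of Igf2, a fetal growth factor (chr7:149841601-149856400, 14800 bp, ratio 0.403, 4.05% in H3K36me3). The others were in Gnas (7400 bp, ratio 0.616, H3K36me3 at 400 bp), Mest (6000 bp, 0.503, 1800 bp), Igf2r (6000 bp, 0.334, 4400 bp) and at 2 places in Kcnq1 (6000 and 5800 bp, 0.127 and 0.121, 63200 and 22000 bp). H3K36me3 overlapped 1 of the 7 but lay within 10 kb of 4. Gnas, Mest and Igf2r thus had H3K36me3 beside the domain and not in it. Among the other families, 2 of 24 protocadherin genes, 2 of 42 collagen genes (Col2a1 and Col19a1) and 1 of 18 genes for H3K9 methylation (Pphln1, 55.6% in H3K36me3) were touched. Vomeronasal receptors (0 of 326), olfactory receptors (0 of 1106), ribosomal protein genes (0 of 144), histone genes (0 of 67), defensins (0 of 53), germline genes (0 of 17), Pram (0 of 10) and Speer (0 of 9) had none among their coding genes. An H3K9me3 region of any width touched 41.4% of all coding genes. Narrower regions touched a lower share of vomeronasal (38) and olfactory receptor (50), ribosomal protein (13), histone (3), defensin (8) and Pram (1) genes. The share was higher for germline genes (13 of 17) and Speer (4 of 9). At 1.63% the shorter of these lists would hold about 1 gene or fewer, so that counts of 0 to 2 in them are near the background. Speer7-ps1, annotated as a long noncoding RNA and outside the list of coding genes, held the whole domain chr5:15194801-15201600 (6800 bp, 58.8% of bins copied).

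A protein-coding gene was absent from 31 domains (8.01%, interval 5.70 to 11.1), compared with 6.48% of narrower regions. They lay in long noncoding or processed transcripts, 11 of them had at least 50% of bins copied, and 18 overlapped H3K36me3. After those in the arrays of chromosomes 1, 4 and 8, the widest were in Gm11033 (chr8:77306401-77319800, 13400 bp, 22.4% of bins copied) and AI854517 (chr7:86645001-86658000, 13000 bp, 1.54% copied), both without H3K36me3.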

How the data were processed

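Per the labels and the methods of the study, the authors aligned ChIP-seq reads to mm9 with Bowtie 1.0.0 with a limit of 5 alignments, removed PCR duplicates, counted reads in 200 bp bins of the genome, scaled the counts to library size and matched the WT and G34R distributions in SeqMonk. They then kept bins that overlapped genes and lay above the 95th percentile in either cell type and joined those within 100 bp with BedTools 2.20.1. The study's methods also name the removal of extreme read counts and a limit on the size of merged regions whose sense is unclear. They deposited 2 lists of 3 columns (chromosome, start and end). The depth per sample is unknown, and the comparison of WT with G34R cells was not run.

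Genes, coding sequence and starts came from GENCODE (NCBIM37), in which every H3K9me3 bin touched a gene. Zinc finger genes were taken by symbol prefix, C2H2 motifs from translated coding sequence, and exact copies from the central 50 bases of each bin, both strands. A domain lay at a start if within 1 kb. Copy and motif counts were tested on simulated data. Python 3.11.15, numpy 2.4.6, pandas 2.3.3, scipy 1.17.1, numba 0.67.0 and Biopython 1.88 were used. No test was run, since there was 1 library per group.

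Named were the 12 widest domains, the 3 widest not already named in each class (zinc finger gene, at least 50% coding bins, coding start, no coding gene, at least 50% copied, at least 50% in H3K36me3, no H3K36me3 within 100 kb), and the 3 groups with the most domains. The members, lists and this rule were chosen with earlier results of these data known. Loci beyond it were chosen after their values were seen.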

Additional observations from a re-analysis of the deposited data

How the results depend on the processing

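The share of all wide domains that overlapped H3K36me3 was 20.9% to 50.9% under the alternatives, so its size depended on the definitions of a domain and of overlap. In narrower regions as deposited it was 8.02% for any overlap and 6.49% for at least 50% of the length. A wider region meets more features by its width alone, so these shares per region cannot be compared directly between widths. With a width above 10 kb there were 55 domains. Of these 0% touched a zinc finger gene listed by symbol (2 touched a gene with 3 or more C2H2 motifs), 45.5% lay at a coding start and 50.9% overlapped H3K36me3, with 33.0% of bins in H3K36me3, 9.50% touching coding sequence and 31.9% copied. With neighbours up to 2 kb apart joined first there were 1569 domains. H3K36me3 overlapped 24.7%, 11.8% of bins were in H3K36me3, 10.7% touched coding sequence, 13.8% were copied, 81.6% had another wide domain within 1 Mb, and 27.5% of those that were not CpG-dense overlapped H3K36me3. Without chromosome 8 the shares of bins were 12.4% (coding), 14.6% (copied) and 23.3% (H3K36me3). Domains with under 10% of bins copied gave 14.9% of bins touching coding sequence, 33.1% of domains and 19% of bins with H3K36me3, 40.8% of domains at a coding start and 0% of CpG-dense domains with H3K36me3. The widest domain of each group gave 12.9% (coding), 10.1% (copied), 23.9% (H3K36me3) and 0% (CpG-dense domains with H3K36me3). Copies of the central 36 and 100 bases were found in 20.7% and 10.7% of bins. H3K36me3 covered at least 50% of 20.9% of domains and lay within 10 kb of 46.8%. Transcript starts gave 42.6%, a distance of 100 kb gave 33.6% of domains with a neighbour, and C2H2 motifs gave 7.24%. For CpG limits of 0.6 and 0.4, H3K36me3 overlapped 0% and 6.90% of CpG-dense domains and 45.2% and 62.0% of the others. Of 53 values under alternatives 16 fell inside the reported interval, or within 1.5-fold for the number of domains. For these shifts the cause was not tested. The CpG limits, the widest domain per group and the C2H2 motif in GENCODE were chosen after seeing the data, as were all alternatives for CpG-dense and other domains. The planned motif count in RefSeq proteins was not run. No paired analysis was possible because the groups have 1 library each and the lists hold no values per sample.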
